A study of Mus musculus with 64 samples.

Results

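The genes of the proteasome were followed in mouse gastrocnemius muscle with and without HIF1α, at rest and after exercise, in the light and in the dark phase. The set was defined by name: a protein-coding gene whose symbol starts with Psma, Psmb, Psmc, Psmd or Psme and ends in a number was a member when at least 10 reads were counted in 7 or more libraries. Of 43 such genes among 55401 gene identifiers, 41 met the rule. Psmb9 lay closest to the limit, with 10 or more reads in 45 libraries, followed by Psmb8 and Psmd10 with 62 each, and the other members reached 10 reads in every library used. The 2 genes left out were Psma8, a testis form of an alpha subunit, with at most 5 reads in a library, and Psmb11, the thymus form of a beta subunit, with at most 2.

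The proteasome is the main protease for ubiquitin-tagged proteins in the cytosol and nucleus. Its 20S core is a barrel of 4 stacked rings: the outer rings are built from alpha subunits (Psma genes) and gate the entry, and the inner rings from beta subunits (Psmb genes), of which only Psmb5, Psmb6 and Psmb7 cut peptide bonds. Interferon replaces these with Psmb8, Psmb9 and Psmb10 to form the immunoproteasome. The 19S cap recognizes ubiquitin and unfolds the substrate with a ring of ATPases (Psmc genes) and a set of non-ATPase subunits (most Psmd genes), while Psmd5, Psmd9 and Psmd10 encode chaperones that help to assemble the cap. Psme1 and Psme2 (the interferon-induced 11S cap), Psme3 (its nuclear relative) and Psme4 (PA200) encode activators that bind the core without ubiquitin. In skeletal muscle the proteasome degrades contractile proteins during atrophy and remodeling, and NFE2L1 and NFE2L2 raise its genes through antioxidant response elements.

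RNA was sequenced from 64 mice in 8 groups, each with 4 males and 4 females. HIF1α KO mice carried Hif1a alleles with loxP sites around exon 2 (fl/fl). They also carried a Cre transgene under the promoter of human skeletal actin (HSA), which is active in muscle fibers. Controls were fl/fl littermates without Cre. All were 12 to 18 wk old and came from 2 to 9 generations of breeding on a C57BL/6JBomTac background. Mice ran on a treadmill for 60 min or stayed on a mock treadmill (sedentary), at ZT3 (light, inactive phase) or ZT15 (dark, active phase), and muscle was taken 3 h later. The 8 groups are therefore fl/fl and HIF1α KO, sedentary and exercised, at ZT3 and ZT15. Reads were counted over the whole Hif1a gene and not over exon 2 alone, so the Hif1a count does not check the genotype labels. On the CPM scale (read counts scaled to library size) it was 25.7 to 63.2 in 32 fl/fl mice. In 31 HIF1α KO mice it was 23.4 to 57.7 CPM. Reads over exon 2, and the share of Hif1a from cells other than muscle fibers, were not tested. The study itself reported less Hif1a transcript in quadriceps muscle of HIF1α KO mice.

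Total counts per library ranged from 2359780 to 40377963, with a median of 16236352, so that 1 CPM was fewer than 3 reads in the shallowest library. The library of mouse 44 (HIF1α KO, exercised, ZT3), which the study excluded for low coverage, held almost no reads and was left out, which left 7 mice in its group and 63 in all. Xist counts were at least 451 in females and at most 29 in males, and every library matched its sex label. One property ran across the groups: mitochondrial rRNA made up 4.12 to 7.88% of the counts in mice 1 to 16, 0.712 to 3.54% in mice 17 to 32, 1.26 to 11.6% in mice 33 to 48 and 3.42 to 8.49% in mice 49 to 64. The labels do not say what a run of mouse numbers stands for. Mice 17 to 32 comprised 10 HIF1α KO and 6 fl/fl mice, of which 3 were exercised at ZT3 with the KO genotype and 0 with the fl/fl genotype, so values with the 4 blocks of 16 mouse numbers in the model are given where they change a result.

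Members were scattered over 15 chromosomes. The immunoproteasome genes Psmb9 and Psmb8 lie 9.96 kb apart on chromosome 17 and Psme1 and Psme2 lie 5.91 kb apart on chromosome 14 (GRCm38), both pairs in opposite orientation. Proximal promoters, 250 bases before to 50 bases after the RefSeq start on GRCm38.p6, were found for 35 of the 41 members. None was available for Psmb1, Psmb2, Psmb7, Psmc3, Psmd3 and Psmd7, so the catalytic subunit Psmb7 was not searched for motifs. The letters TGACNNNGC, the core of the antioxidant response element, occurred on either strand in the promoters of 6 members (17.1%, 95% Wilson interval 8.10 to 32.7%), namely Psmb5, Psmb6, Psmc6, Psmd12, Psmd9 and Psme4, against 13.99% of 27025 genes in the promoter table and 16.97% of the 10612 tested genes with a promoter. The letters CGGAAG, the core bound by ETS factors, occurred in 19 of 35 members (54.3%), among them Psmd8, Psme4, Psmb3 and Psmd6, against 18.8% of all genes and 33.2% of the tested genes with a promoter. The HIF core ACGTG was found in 8 members (22.9%), in 21.8% of all genes and in 28.7% of the tested genes, and its palindromic form, the E-box CACGTG, which contains it, in 4 members (11.4%), 8.09% and 11.52%. GAAA followed after any 2 bases by GAAA, a form of the interferon response element, occurred in 4 members (11.4%), 3.99% of all genes and 3.71% of the tested genes. The promoters of both catalytic subunits with the antioxidant motif and of the 2 members that differed most between the sexes are shown here, 5′ to 3′ along the gene, with TGACNNNGC and CGGAAG, or their reverse complements, in capitals.
Psmb5 (chr14:54617946-54618245, minus strand): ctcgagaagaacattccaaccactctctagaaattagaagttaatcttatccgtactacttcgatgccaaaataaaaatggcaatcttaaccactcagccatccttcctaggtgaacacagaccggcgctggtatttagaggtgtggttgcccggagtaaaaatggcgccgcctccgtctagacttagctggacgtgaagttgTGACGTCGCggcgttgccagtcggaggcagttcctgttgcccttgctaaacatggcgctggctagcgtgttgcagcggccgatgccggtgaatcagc
Psmb6 (chr11:70525107-70525406, plus strand): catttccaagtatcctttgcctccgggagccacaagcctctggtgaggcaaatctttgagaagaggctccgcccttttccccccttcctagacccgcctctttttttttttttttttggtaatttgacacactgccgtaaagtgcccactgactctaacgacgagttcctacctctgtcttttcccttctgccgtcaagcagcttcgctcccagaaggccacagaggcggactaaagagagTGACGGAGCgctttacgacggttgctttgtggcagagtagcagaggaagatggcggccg
Psmd8 (chr7:29180624-29180923, minus strand): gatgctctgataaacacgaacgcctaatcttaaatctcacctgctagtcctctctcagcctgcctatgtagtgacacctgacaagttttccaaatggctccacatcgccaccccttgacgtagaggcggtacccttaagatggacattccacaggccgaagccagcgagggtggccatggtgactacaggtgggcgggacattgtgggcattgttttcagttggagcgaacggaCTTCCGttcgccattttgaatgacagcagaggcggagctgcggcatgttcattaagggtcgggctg
Psme4 (chr11:30771525-30771824, plus strand): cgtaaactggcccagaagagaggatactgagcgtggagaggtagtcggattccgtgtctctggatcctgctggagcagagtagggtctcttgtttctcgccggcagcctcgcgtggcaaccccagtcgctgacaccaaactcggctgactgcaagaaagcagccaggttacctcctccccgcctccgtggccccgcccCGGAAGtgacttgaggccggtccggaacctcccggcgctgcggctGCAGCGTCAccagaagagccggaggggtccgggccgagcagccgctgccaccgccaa
In Psmb5 and Psmb6 the capitals mark 1 antioxidant motif each, in Psmd8 1 ETS core, and in Psme4 1 of each. A match describes the letters in this window and not a bound site.

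Levels were compared between genes as CPM per kb of annotated exons, as the mean ± SD over 63 mice. The lowest of the 41 members were the immunoproteasome genes Psmb9 and Psmb8. Psmc3, an ATPase of the cap, had the highest level, 63.9 ± 9.50 CPM per kb, and Psmb6, the caspase-like catalytic subunit, followed with 62.9 ± 13.6, so the 2 did not differ beyond their spread. Psme4 came next at 52.1 ± 9.09 CPM per kb, well above the other activators Psme1 (10.3 ± 1.79), Psme3 (8.76 ± 1.13) and Psme2 (6.45 ± 1.23). Levels of the 7 alpha genes ran from 16.0 ± 1.94 CPM per kb (Psma5) to 50.3 ± 4.76 (Psma6) with a median of 18.6. The constitutive beta genes ran from 11.7 ± 2.96 CPM per kb (Psmb3) to Psmb6, with a median of 35.5. The ATPases ran from 13.9 ± 1.44 CPM per kb (Psmc2) to Psmc3, with a median of 37.9. The 11 non-ATPase genes ran from 7.13 ± 0.817 CPM per kb (Psmd11) to 46.6 ± 6.66 (Psmd2, a large scaffold subunit), with a median of 26.01. The order depends on the length used. Per kb of the longest transcript, Psmb6 was highest (121.8 ± 26.3 CPM per kb) and Psmc3 second (91.6 ± 13.6), Psme4 fell from rank 3 to rank 6 (67.3 ± 11.7), and Psma4 (68.6 ± 11.9) and Psmd8 (69.8 ± 23.6) were the highest alpha and non-ATPase genes, while Psmb8 and Psmb9 stayed the lowest 2.

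**Figure D1:**
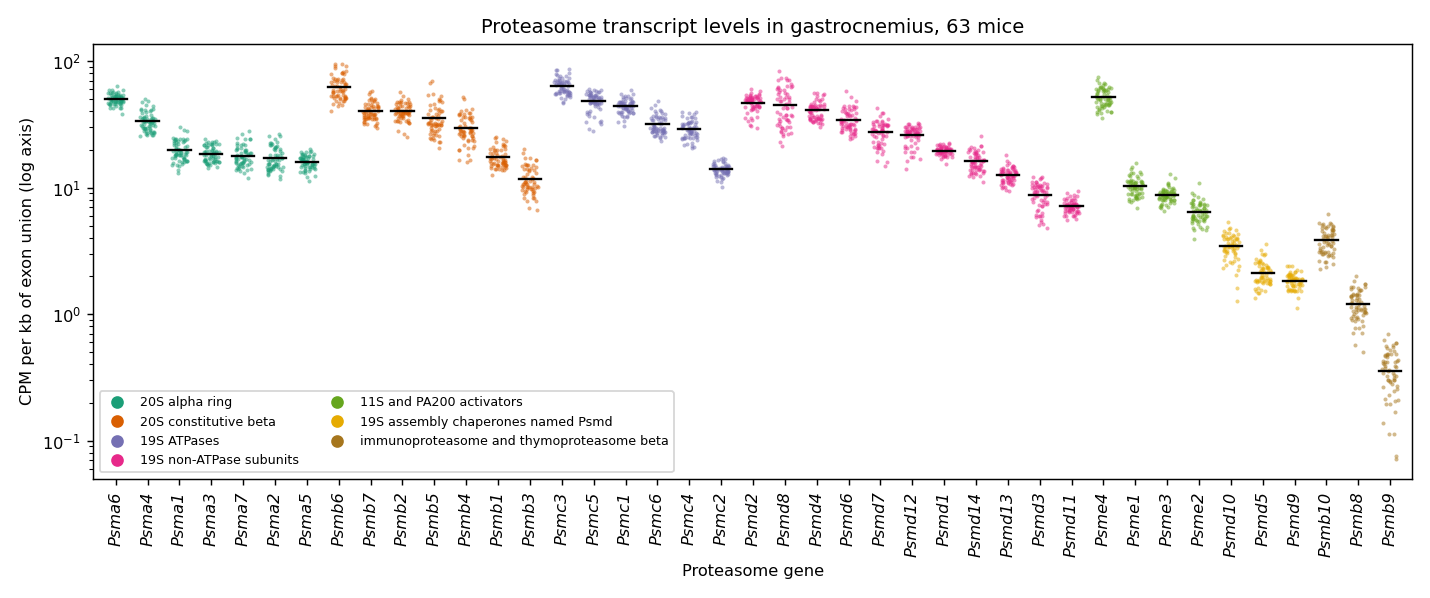
Levels of the 41 proteasome genes in CPM per kb of exon union on a log axis, by role. Points are the 63 mice and bars are means; values of 0 (Psmb9 in 1 mouse) cannot be drawn. The levels run from 0.358 (Psmb9) to 63.9 (Psmc3) CPM per kb.

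The 3 assembly chaperones were low, at 3.45 ± 0.773 CPM per kb for Psmd10, 2.12 ± 0.455 for Psmd5 and 1.84 ± 0.254 for Psmd9, which was the highest of the 3 per kb of the longest transcript (5.06 ± 0.700). The immunoproteasome genes were at 3.84 ± 0.871 (Psmb10), 1.201 ± 0.315 (Psmb8) and 0.358 ± 0.148 CPM per kb (Psmb9). Per kb, Psmb8 had a median of 3.55% of the level of Psmb5, the subunit it replaces, with a range of 1.42 to 7.14% over the mice. Psmb10 had a median of 9.49% of Psmb7 (5.87 to 13.1%) and Psmb9 a median of 0.573% of Psmb6 (0 to 1.22%). Per kb of the longest transcript the medians were 6.29% for Psmb8, 10.3% for Psmb10 and 0.375% for Psmb9. In RNA from a whole muscle, more cells that express a gene and more RNA per cell cannot be told apart, and leukocyte markers were present (summed level 41.6 to 152 CPM over 10 measured markers). Psmb9 shares 212 bases with Tap1 on the opposite strand, whose count was 205% of that of Psmb9, so its level is uncertain. The spans of 21 members, introns included, overlap another annotated gene, and for 4 that gene had at least 10% of the member's counts. Beside Psmb9 these were Psme1 (Emc9, only 14 bases), Psmd13 (Sirt3, 342 bases) and Psma2 (AW209491, 8943 bases). Psmc3 (Slc39a13, 9.33%) and Psmb7 (Nek6, 7.34%) were just below that limit.

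Psmd1, a scaffold subunit, varied least between mice (coefficient of variation 7.05%). Psmb9, with only 0 to 86 reads per library, varied most (41.3%). Among the abundant members Psmd8, a non-ATPase subunit of the lid, varied most (33.8%). These coefficients pool both sexes, and the median of Psmd8 was 99.98 CPM in females and 174 CPM in males.

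The first comparison asked how the proteasome genes differed between HIF1α KO and fl/fl mice. Every HIF1α KO mouse carried Cre and no control did, so loss of HIF1α and presence of Cre cannot be told apart. Averaged over both times and both treatments, 8 of the 41 members (19.5%) were higher in HIF1α KO mice and 0 were lower at an adjusted p under 0.1. Of the 15241 genes tested, 8.26% were called, and 4.68% in the higher direction. The 8 were Psmd5, Psmb5, Psmb3, Psma1, Psmd6, Psmb1, Psme1 and Psmb6. By role, 4 of 7 constitutive beta genes rose, 1 of 7 alpha genes, 1 of 11 non-ATPase genes, 1 of 3 chaperones, 1 of 4 activators, 0 of 6 ATPases and 0 of 3 immunoproteasome genes. The fitted log2 fold change was above 0 for all 14 alpha and constitutive beta genes (0.01 to 0.28), and for 11 of 17 genes of the cap's ATPases and non-ATPases (-0.14 to 0.18). The median over the 41 members was 0.10, and -0.003 over all genes tested, and 20 members had an unadjusted p under 0.05 (20.4% of all genes). These are small changes, and the values of the genotypes overlapped for every member named here.

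Psmd5 (ENSMUSG00000026869.12, chromosome 2, 34849734 to 34874968, minus strand), the chaperone also known as S5b, had the smallest p. It was at 10.996 to 23.2 CPM with a median of 16.7 in 31 HIF1α KO mice and at 9.64 to 25.8 CPM with a median of 13.5 in 32 fl/fl mice. The HIF1α KO mice were shifted upward within the same range, with a fitted log2 difference of 0.24 with SE 0.0657 (adjusted p = 0.0196, edgeR's quasi-likelihood test). Psmb5 (ENSMUSG00000022193.7, chromosome 14, 54614119 to 54618022, minus strand), the chymotrypsin-like catalytic subunit, was at 22.1 to 60.7 CPM with a median of 32.3 in HIF1α KO mice. In fl/fl mice Psmb5 was at 18.7 to 62.3 CPM with a median of 26.9. The log2 fold change of Psmb5 came to 0.28 with SE 0.0863 (adjusted p = 0.0431), the largest among the members.

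Psmb3, a structural beta subunit, was at 16.0 to 46.6 CPM (median 28.1) in HIF1α KO and 15.3 to 42.9996 CPM (median 23.5) in fl/fl mice, a fitted log2 difference of 0.25 with SE 0.0772 (adjusted p = 0.0444). Psma1, of the alpha ring, was at 44.96 to 88.4 CPM (median 59.3) against 38.2 to 84.9 CPM (median 52.9), a fitted log2 difference of 0.18 with SE 0.0577 (adjusted p = 0.0569). The ranges of both genes overlapped almost fully. Psmd6, a lid subunit, was at 71.7 to 146 CPM (median 102.3) against 68.3 to 163 CPM (median 88.1), and differed by 0.18 on the log2 scale (SE 0.0629, adjusted p = 0.0806). Psmb1, a structural beta subunit, was at 64.6 to 115 CPM (median 80.3) against 57.8 to 110.5 CPM (median 73.1), and differed by 0.16 (SE 0.0549, adjusted p = 0.0873). Psmb6, whose promoter holds the antioxidant motif shown above, was at 75.8 to 179 CPM (median 122) against 84.5 to 177 CPM (median 103), and differed by 0.19 (SE 0.0694, adjusted p = 0.0914). The lowest Psmb6 value of all was that of a HIF1α KO mouse. Psme1, of the 11S cap, differed by 0.17 (SE 0.0591, adjusted p = 0.0904). Psmb7, the trypsin-like catalytic subunit, was at 112 to 200.1 CPM (median 139) against 101 to 195 CPM (median 127), a log2 fold change of 0.13 (adjusted p = 0.127). The immunoproteasome genes did not pass the test, at log2 fold changes of 0.17 for Psmb10 (adjusted p = 0.171), 0.01 for Psmb8 (0.961) and -0.01 for Psmb9 (0.982).

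**Figure D2:**
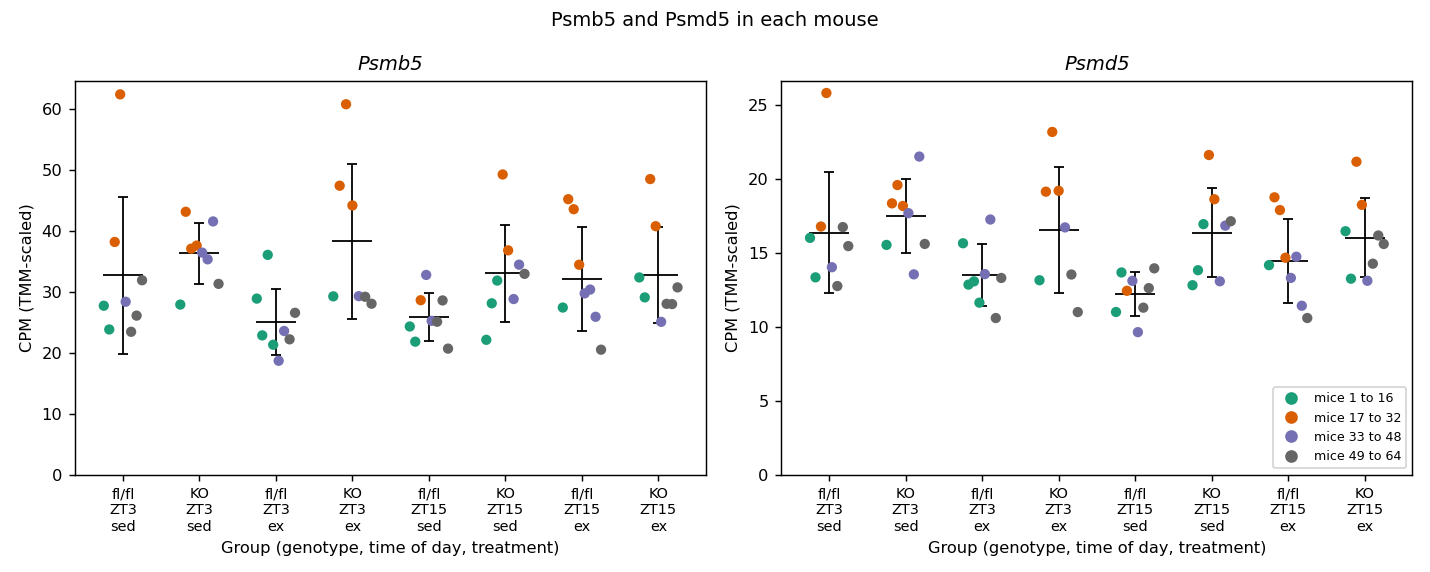
Psmb5 and Psmd5 in CPM in each of 63 mice by group, with points coloured by block of 16 mouse numbers and black bars for the group mean ± SD. Mice 17 to 32 hold the 2 highest Psmb5 values, 62.3 CPM in a sedentary fl/fl mouse and 60.7 CPM in an exercised HIF1α KO mouse, both at ZT3.

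The calls depended on which mice were in the fit. With the block of mouse numbers in the model, 6 members were called (7.43% of all genes), and Psmb1, Psmb6 and Psmd6 no longer passed, while Psme4 passed as lower in HIF1α KO mice, with a log2 fold change of -0.13 (adjusted p = 0.0424), against -0.10 (adjusted p = 0.169) without the block. Without mice 17 to 32, 3 were called (3.81% of all genes), Psmd5 and Psmb5 higher and Psme4 lower, and the median over members was 0.04. Without mouse 22, a sedentary fl/fl female at ZT3 with the third highest mean level of the members, 18 were called, all higher, and so were 14.4% of all genes. With the block and without mouse 22, 11 were called (10.3% of all genes). When each of the 63 libraries was left out in turn, 2 to 18 members were called, and Psmb5 and Psmd5 were called in all 63 fits. These fits share nearly all mice. With no filter on low counts Psmd5 stayed called and Psmb5 did not (2.20% of all genes called). Within the 4 blocks taken alone the log2 fold change of Psmd5 was 0.27, 0.14, 0.26 and 0.29 and that of Psmb5 0.38, 0.04, 0.17 and 0.32 in the order of mouse numbers. No member was called in any block, and few genes were called at all (0, 79, 0 and 138 in the same order).

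Within single conditions, members were called only in exercised mice at ZT3, where 3 of 41 were higher in HIF1α KO mice (7.32%, beside 1.43% of all genes, 0.873% of them higher). In 7 HIF1α KO mice Psmb5 was at 28.0 to 60.7 CPM with a median of 29.2, and in 8 fl/fl mice at 18.7 to 36.02 CPM with a median of 23.2, a fitted log2 difference of 0.62 with SE 0.178 (adjusted p = 0.0870). Psma1 was at 53.5 to 88.4 CPM (median 61.8) against 40.9 to 53.4 CPM (median 47.5), so that the 2 groups did not overlap, a fitted log2 difference of 0.43 with SE 0.119 (adjusted p = 0.0733). Psmb7 was at 119.7 to 200.1 CPM (median 139.5) against 101 to 144 CPM (median 112), with overlap, a fitted log2 difference of 0.37 with SE 0.106 (adjusted p = 0.0870). The median over members was 0.23, and 21 had an unadjusted p under 0.05 (17.4% of all genes). None of the 3 was called with the block in the model, with the share of mitochondrial rRNA as a covariate, or without mice 17 to 32, when their log2 fold changes were 0.19 to 0.32. Of all genes, 0.387, 0.551 and 0% were called in these fits, in that order. The number of members called ranged from 0 to 16 when single libraries were left out. Without mouse 22 it was 8, beside 3.16% of all genes, and the share in the other fits is not given here. At ZT3 in sedentary mice, at ZT15 in sedentary mice and at ZT15 in exercised mice 0 members were called by edgeR and 0 by DESeq2, with 1, 13 and 2 at an unadjusted p under 0.05 (6.81, 10.6 and 7.41% of all genes) and medians of 0.03, 0.19 and -0.08 (0.400, 0.0459 and 0.400% of all genes called). The differences between these comparisons did not pass a test either: the genotype effect in exercised mice differed between ZT15 and ZT3 by a median of -0.30, with 22 members at an unadjusted p under 0.05 (15.2% of all genes) and 0 called.

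The second comparison was of ZT15 with ZT3. No member passed the test in the average over the 4 groups by edgeR or by DESeq2, with 3 at an unadjusted p under 0.05 (17.5% of all genes) and a median of -0.02 (8.02% of all genes called). The members with the most negative values were the 3 immunoproteasome genes. Psmb9 was at 0 to 2.30 CPM (median 1.14) in 32 mice at ZT15 and at 0.415 to 2.55 CPM (median 1.51) in 31 mice at ZT3, a log2 fold change of -0.36 (adjusted p = 0.176). Psmb8 was at 1.70 to 6.19 CPM (median 3.62) against 1.93 to 6.76 CPM (median 4.37), a log2 fold change of -0.17 (adjusted p = 0.335). Psmb10 was at 3.88 to 8.56 CPM (median 5.94) against 4.21 to 10.5 CPM (median 7.09), a log2 fold change of -0.15 (adjusted p = 0.279). The times overlapped for each of the 3, and with the block in the model only Psmb9 passed, at -0.38 (adjusted p = 0.09995), as did 13.3% of all genes. Of 10 leukocyte markers 0 were called between the times, with a summed level of 41.6 to 118 CPM at ZT15 and 43.6 to 152 CPM at ZT3.

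Within single groups, ZT15 against ZT3 gave 0 called members in sedentary fl/fl, exercised fl/fl, sedentary HIF1α KO and exercised HIF1α KO mice. In these groups 9, 15, 0 and 1 members had an unadjusted p under 0.05 (15.9, 12.5, 5.75 and 10.6% of all genes), the medians were -0.17, 0.16, 0.001 and -0.12, and 1.88, 1.18, 0.479 and 0.663% of all genes were called. DESeq2 called 2 in sedentary fl/fl mice and 0 in the other groups. The shares of all genes above are those of edgeR. The share called by DESeq2 is not given here, so its 2 calls have no background beside them. The 2 smallest p-values in sedentary fl/fl mice were those of Psmd5, with 9.64 to 13.96 CPM (median 12.5) at ZT15 and 12.8 to 25.8 CPM (median 15.7) at ZT3 in 8 mice each, a fitted log2 difference of -0.42 with SE 0.132 (adjusted p = 0.112), and of Psmb4, a structural beta subunit, at -0.50 (SE 0.163, adjusted p = 0.131). With the block in the model both passed, Psmd5 at -0.36 (adjusted p = 0.0428) and Psmb4 at -0.44 (adjusted p = 0.0571), as did 5.76% of all genes.

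The third comparison was of exercised with sedentary mice, 3 h after the run. Averaged over the 4 groups, 0 members were called by edgeR and 0 by DESeq2 (2.84% of all genes), 1 had an unadjusted p under 0.05 (10.9% of all genes), and the median was -0.05. Psma6 had the smallest adjusted p, 0.281, with a log2 fold change of -0.08. In fl/fl mice at ZT3, fl/fl mice at ZT15, HIF1α KO mice at ZT3 and HIF1α KO mice at ZT15, 0 were called by either tool (0.236, 0, 0.131 and 0.0591% of all genes by edgeR), 17, 5, 0 and 4 had an unadjusted p under 0.05 (13.8, 9.23, 5.07 and 5.54% of all genes), and the medians were -0.17, 0.13, -0.01 and -0.11. In fl/fl mice at ZT3 all 14 alpha and constitutive beta genes had values below 0 (-0.47 to -0.10), and in fl/fl mice at ZT15 all 14 had values above 0 (0.01 to 0.34). The interaction that tests this contrast, time of day by exercise in fl/fl mice, gave 0 called members by edgeR (0% of all genes), with 23 of 41 at an unadjusted p under 0.05 (56.1%, beside 18.8% of all genes), a median of 0.33, and the smallest adjusted p at 0.135 for Psmb4 (0.80, SE 0.230) and Psma7 (0.59, SE 0.172). DESeq2 called 11 of the 41, all above 0 (2.99% of all genes). Since 4 of the 8 exercised fl/fl mice at ZT3 came from mice 1 to 16 and 0 from mice 17 to 32, whose member levels differed, the blocks were not balanced over this interaction. The sedentary fl/fl group at ZT3 also held mouse 22. Its mean centered log2 level over the members was 0.28, against -0.09 to 0.11 in the rest of that group. The other interactions gave 0 called members by edgeR and by DESeq2. At an unadjusted p under 0.05 there were 20 members for the interaction of all 3 factors (14.4% of all genes), 16 for genotype by exercise at ZT15 (9.11%), 5 at ZT3 (4.61%), 1 for genotype by time in sedentary mice (3.51%) and 0 for time by exercise in HIF1α KO mice (2.24%). These interactions share groups of mice with one another.

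**Figure D3:**
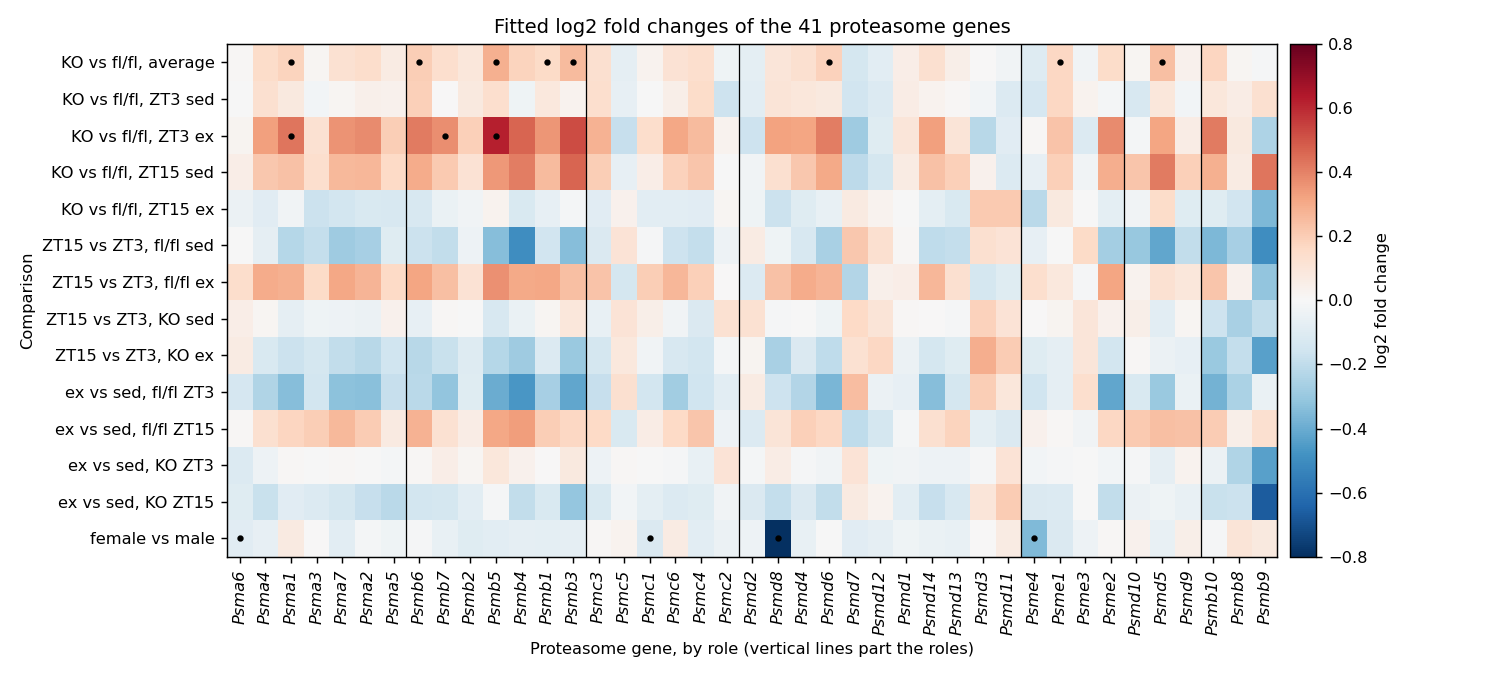
Fitted log2 fold changes of the 41 members (columns, by role, highest level first) in 14 comparisons (rows), from blue (lower) to red (higher); ex is exercised and sed is sedentary. Black points mark the 15 values with an adjusted p under 0.1: 8 for the genotype average, 3 for exercised mice at ZT3 and 4 for sex.

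Of the members called between the sexes, Psmd8 and Psme4 differed most. In all, 4 of 41 members were lower in females than in males and 0 were higher (9.76%, beside 25.1% of all genes and 13.3% in the lower direction), and 4 had an unadjusted p under 0.05 (30.6% of all genes). Psmd8 (ENSMUSG00000030591.17, chromosome 7, 29174188 to 29180701, minus strand), a non-ATPase subunit of the cap's lid, was at 64.8 to 159.6 CPM with a median of 99.98 in 32 females. In 31 males Psmd8 was at 113 to 257 CPM with a median of 174. Its log2 fold change, female minus male, came to -0.79 with SE 0.0697 (adjusted p = 1.57e-14). In 5 of the 8 groups every male was above every female, and the difference had the same sign in all 8, from -0.95 in sedentary HIF1α KO mice at ZT15 to -0.60 in sedentary fl/fl mice at ZT3. Within the 4 blocks of mouse numbers taken alone it was -0.84, -0.63, -0.95 and -0.85.

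Psme4 (ENSMUSG00000040850.17, chromosome 11, 30771726 to 30880361, plus strand), which encodes the activator PA200, was at 299 to 512 CPM with a median of 379 in females. In males Psme4 was at 379.4 to 628 CPM with a median of 498. The log2 fold change came to -0.35 with SE 0.0442 (adjusted p = 2.35e-09), and in 5 of the 8 groups every male was above every female. By group it ran from -0.63 in exercised HIF1α KO mice at ZT3 to -0.07 in exercised HIF1α KO mice at ZT15, and within the 4 blocks it was -0.35, -0.32, -0.49 and -0.24. The sex difference of Psme4 at ZT15 was smaller than at ZT3 by 0.19 on the log2 scale (SE 0.0809), which did not pass the adjustment (unadjusted p = 0.0223, adjusted p = 1.000). No member passed the test for a difference of the sex effect between genotypes, times or treatments by edgeR, with 10, 1 and 1 at an unadjusted p under 0.05 (10.5, 3.59 and 2.66% of all genes). DESeq2 was not run on these 3.

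**Figure D4:**
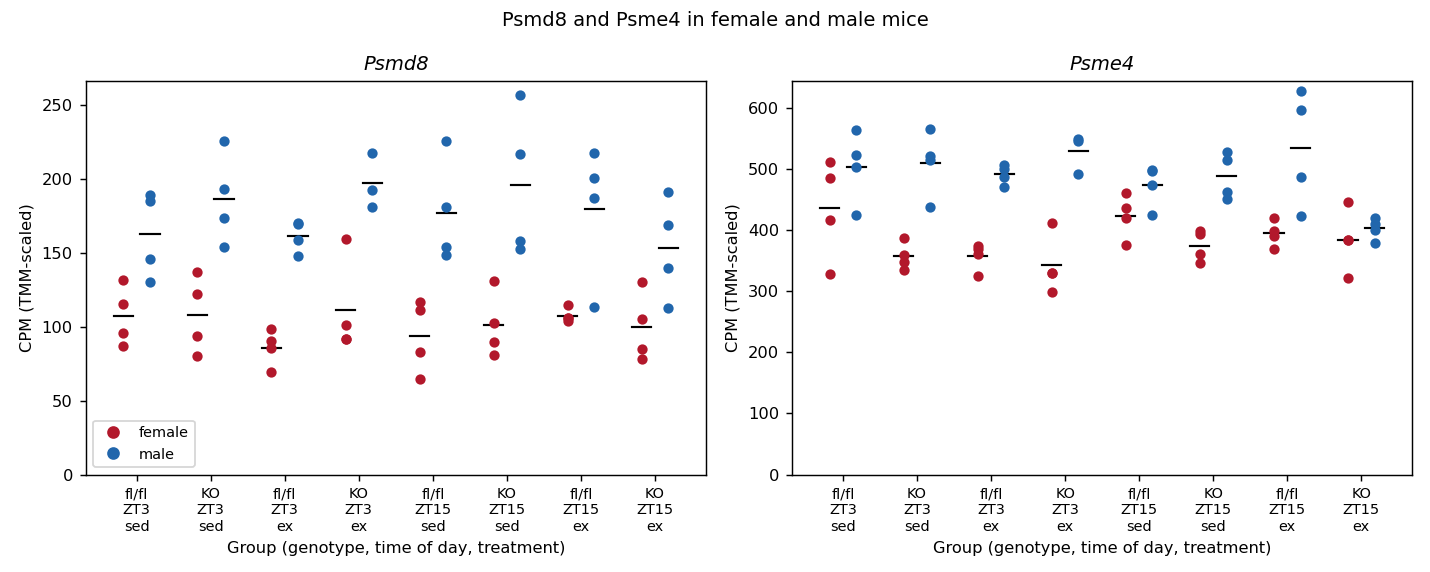
Psmd8 and Psme4 in CPM in female and male mice of the 8 groups. Points are mice and bars are means. In 5 of 8 groups every male lies above every female, for each gene.

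The other called members differed little. Psma6 was at 47.5 to 73.6 CPM (median 59.4) in females and 56.8 to 78.3 CPM (median 63.05) in males, a fitted log2 difference of -0.09 with SE 0.0341 (adjusted p = 0.0536). Psmc1, an ATPase of the cap, was at 59.7 to 105.5 CPM (median 82.5) against 74.8 to 114 CPM (median 87.9), a fitted log2 difference of -0.12 with SE 0.0454 (adjusted p = 0.0600). The sexes overlapped for both. All 8 slow fiber markers were higher in females than in males (summed level 646 to 3899 CPM in females, 359.8 to 1805 CPM in males), as were all 6 adipocyte markers (2237 to 5956 against 1238 to 3833 CPM). Car3, which muscle fibers also express, made up 86.4 to 98.1% of the adipocyte sum, and the other 5 markers together were at 63.2 to 391 CPM (median 192) in females and 49.6 to 299 CPM (median 104) in males. The part of the adipocyte markers in the sex differences was not tested. With the slow fiber score as a covariate, Psmd8 and Psme4 stayed called, and 7 members were called, 6 of them lower in females (15.1% of all genes called).

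Most members differed between blocks of mouse numbers. With group and sex in the model, 36 of 41 members (87.8%) differed between the 4 blocks at an adjusted p under 0.1, beside 53.9% of all genes. Between mice 17 to 32 and mice 1 to 16, 29 of the 36 were higher in mice 17 to 32 and 7 were lower. The split by direction over all genes is not given here, so this split has no background beside it. The higher ones included Psmb5 (log2 fold change 0.61), Psmb3 (0.52), Psmb6 (0.51), Psmb4 (0.50) and Psma2 (0.49). The lower ones included the lid subunits Psmd3 (-0.70), Psmd7 (-0.54) and Psmd12 (-0.44), the scaffold Psmd2 (-0.36), the ATPase Psmc5 (-0.52) and the activator Psme3 (-0.27). The mean centered log2 level over the members was -0.29 to 0.04 in mice 1 to 16, -0.13 to 0.31 in mice 17 to 32, -0.22 to 0.30 in mice 33 to 48 and -0.25 to 0.09 in mice 49 to 64.

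**Figure D5:**
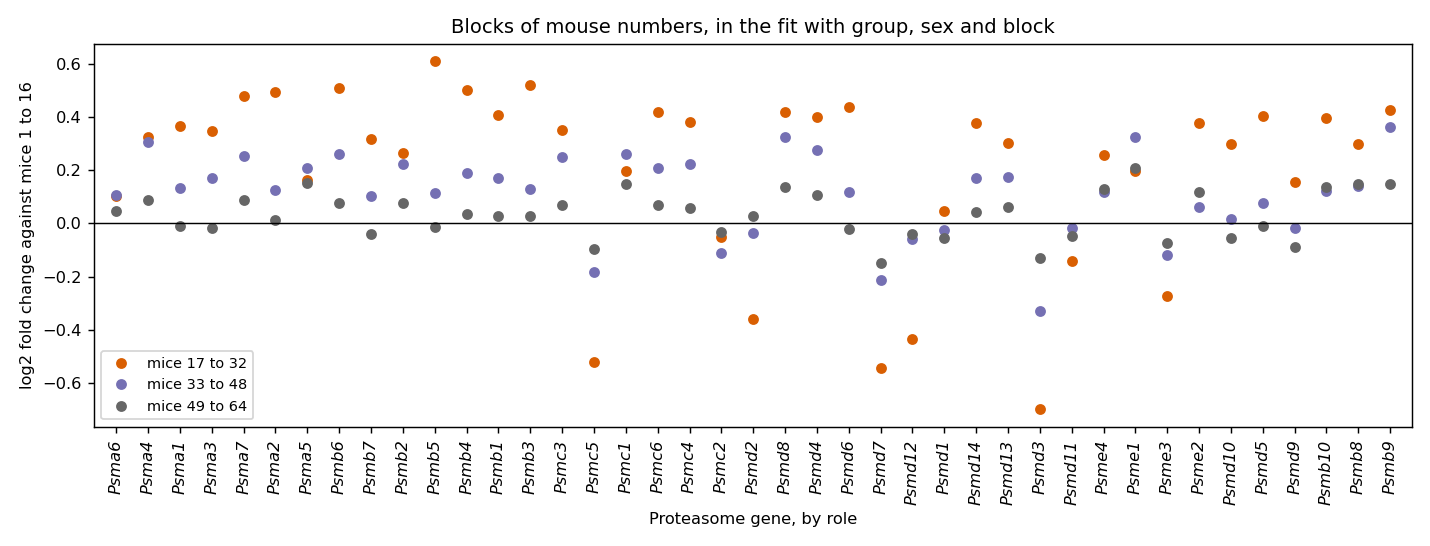
Log2 fold changes of the 41 members in mice 17 to 32, 33 to 48 and 49 to 64 against mice 1 to 16, from the fit with group, sex and block; members are ordered by role. Most members lie above 0 in mice 17 to 32, up to 0.61 (Psmb5), while Psmd3 lies at -0.70.

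Over all genes tested, 8.26% were called by genotype, 2.84% by exercise and 8.02% by time, the background for the counts of the other genes of the pathway. Of the 5 tested further components and bound enzymes of the cap, 2 were lower in HIF1α KO mice and 0 were higher: Uchl5, a deubiquitinase, at -0.25 (SE 0.0827, adjusted p = 0.0628), and Ube3c, a ubiquitin ligase, at -0.15 (SE 0.0439, adjusted p = 0.0368). Of 7 tested assembly factors and inhibitors of the core, 6 ubiquitin and E1 genes, 9 shuttle factors and VCP cofactors, and 10 regulators of proteasome genes, 0 were called by genotype. Of 10 muscle ubiquitin ligases, 2 were higher in HIF1α KO mice (Mdm2 0.17, adjusted p = 0.0628, and Stub1 0.12, adjusted p = 0.0949). With exercise, 3 of the 10 regulators rose, Maff (1.38, SE 0.228, adjusted p = 5.25e-05), Mafk (0.49, SE 0.0726, adjusted p = 3.24e-06), which encode small Maf partners of NFE2L1 and NFE2L2, and Foxo3 (0.27, SE 0.0747, adjusted p = 0.0391), an activator of atrophy genes, and so did 1 of 10 ligases, Trim63 (MuRF1, 0.62, SE 0.141, adjusted p = 0.00591). At ZT15, Asb2 (0.40), Trim63 (0.40) and Foxo3 (0.21) were higher and Fbxo30 (-0.33), Ngly1 (-0.14) and Nedd4 (-0.09) lower than at ZT3, with adjusted p of 0.000233 to 0.0877. Among markers of other cells, Car3 was the only one of 6 adipocyte markers called (0.58; the sum, most of it Car3, which muscle fibers also express, was 1841 to 5956 CPM against 1238 to 5430 CPM, and 54.9 to 335 CPM against 49.6 to 391 CPM without Car3), Pdgfra the only one of 5 fibroblast markers (-0.12), and 0 of 12 muscle, 0 of 8 slow fiber, 0 of 6 endothelial, 0 of 5 erythroid and 0 of 10 leukocyte markers were called; their part in the genotype differences of the members was not tested.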

How the data were processed

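Poly-A RNA of gastrocnemius muscle was sequenced in 64 mice. Alignment to mm10 used STAR and read counting used featureCounts. The authors deposited whole-number counts per gene, neither normalized nor filtered. Tool versions, annotation release and strand setting are not given in the sources used here, so reads of a gene and of an overlapping gene cannot be told apart. Identifiers were matched without version to GENCODE M21 (55141 of 55401), and groups and sexes were taken from the sample labels.

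Counts of 63 libraries were analysed in R 4.3.3 with edgeR 4.0.16: filterByExpr (minimum count 10, 15241 genes), TMM scaling, robust glmQLFit with group and sex, and glmQLFTest. P-values were adjusted over all genes of a comparison (Benjamini-Hochberg), and an adjusted p under 0.1 counted as called. Levels are CPM on TMM-scaled library sizes, divided by the exon union in kb where genes are compared. The mean level of the members per mouse is the mean of centered log2 CPM (prior count 2). The members and gene lists were chosen with earlier results of these data known. Members named in full are those past the threshold, the catalytic subunits and their immunoproteasome counterparts, and the highest and lowest of each role. Psmb4, Psma7, Psme4 under genotype, Psma6 under exercise, Psmd1, the members named for sex and for the blocks, and Trim63 at ZT15 were named after their values were seen. The lists of interferon genes and of Schwann cell markers are not reported here.

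In simulated data for the genotype average with 15241 genes, the test found 52% of 50 genes changed by 0.3 (log2), 88% at 0.5 and 100% at 1 and at 2. The count of false calls was 14 at every size and is not specific to any of them. Alternatives were all 64 libraries, no sex term, 3 other filters on low counts, an adjusted p under 0.05, RLE factors, DESeq2 1.42.0, the block of 16 mouse numbers, the mitochondrial rRNA share, the slow fiber score, libraries under 5000000 counts left out, and only the compared groups. Leaving out mice 17 to 32, mouse 22, mouse 22 with the block, and each library in turn, and a sex effect per group, were chosen after seeing the data. Each mouse is 1 library. The study kept same-sex littermates together in cages, but which of these mice shared a litter or a cage is not given, so shared litters and cages could not be modeled. Protein sequences were not used here.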

Additional observations from a re-analysis of the deposited data

Results flagged for a closer look

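Of 192 combinations of 24 members and 8 groups, 6 held a mouse that stood apart from the rest of its group by Dixon's test at the 95% level, and chance gives about 1 in 20. Mouse 22, a sedentary fl/fl female at ZT3 with 20398084 counts, accounted for 4 of the 6. It was the highest of its group for Psmb1 (110 CPM, others 69.3 to 86.0), Psmd5 (25.8 CPM, others 12.8 to 16.8) and Psmd6 (163 CPM, others 80.9 to 110.1), and the lowest for the scaffold subunit Psmd2 (120 CPM, others 191 to 215). Its mean centered log2 level over the 41 members was 0.28, against -0.09 to 0.11 in the other mice of its group. In sedentary fl/fl mice at ZT15, Psmb9 was at 0 CPM in mouse 63 (others 0.618 to 1.74), whose library held 6618136 counts, and Psmc2 was at 82.5 CPM in mouse 56 (others 65.2 to 71.2).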

How the results depend on the processing

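For the genotype average, 8 members were called, against 4 with all 64 libraries, 5 without the sex term, 2 with no filter on low counts, 3 at an adjusted p under 0.05, 3 without mice 17 to 32 (2 higher, 1 lower) and 18 without mouse 22. The share of all genes called moved too, from 8.26% to 7.23, 6.13, 2.20, 4.56, 3.81 and 14.4% in the same order. For genotype in exercised mice at ZT3, 3 were called, against 0 without the sex term, with no filter, at an adjusted p under 0.05, with the mitochondrial rRNA share, without mice 17 to 32, and with the block of mouse numbers with or without mouse 22. Of all genes 1.43% were called, against 0.249, 0.139, 0.328, 0.551, 0, 0.387 and 0.467% in the same order. There 6 were called with a filter on every library (3.64% of all genes), 6 by DESeq2 (3.07%), 8 without mouse 22 (3.16%) and 1 without libraries under 5000000 counts (0.930%). Where 0 members were called for time of day, 1 was called in the average with the block (13.3% of all genes). In sedentary fl/fl mice 2 were called with the block (5.76% of all genes), 1 with a filter on every library and 2 by DESeq2. In exercised fl/fl mice 1 was called when only the compared groups were fitted. For the exercise average 1 was called without mice 17 to 32, and the members' median was -0.19 within mice 33 to 48. Of these counts for time and exercise, those without a percentage have no share of all genes beside them. DESeq2 called 11 for time by exercise in fl/fl mice (2.99% of all genes). For sex, 4 were called, against 2 with all 64 libraries, 2 with no filter, 2 at an adjusted p under 0.05, 11 with the mitochondrial rRNA share, 7 with the slow fiber score and 7 with the block without mouse 22. Of all genes 25.1% were called, against 24.7, 10.5, 19.7, 30.5, 15.1 and 30.1% in the same order. Psmb8, not called for the genotype average, changed sign to -0.019 with the block, -0.026 with the mitochondrial rRNA share, -0.037 without mice 17 to 32 and -0.018 with the block without mouse 22. The median level per kb was 19.6 by exon union and 35.5 by longest transcript, and the looser motif TGANNNNGC was in 57.1% of member promoters (95% Wilson interval 40.9 to 72.0%), 45.05% of all genes and 47.9% of the tested genes. The cause of these changes was not tested.

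Leaving out 1 library at a time gave 2 to 18 called members for the genotype average, 0 to 16 for exercised mice at ZT3 and 3 to 5 for sex. The share of all genes called moved too. Without mouse 22 it was 14.4% for the genotype average and 3.16% for exercised mice at ZT3, against 8.26 and 1.43%. For the other mice the share is not given here, so their counts have no background beside them. The genotype average moved by over 1.5 times without any one of 26 mice, to 18 without mouse 22 and to 2 to 5 without mouse 5, 6, 7, 8, 10, 13, 14, 20, 23, 24, 25, 27, 28, 29, 30, 33, 41, 43, 45, 46, 49, 52, 54, 57 or 60. For exercised mice at ZT3 it moved to 0 without mouse 6, 13, 20, 23, 28, 36, 48, 50 or 57 and to 5 to 16 without mouse 3, 22, 27, 34, 53 or 58. No paired analysis was possible because each mouse number belongs to 1 mouse, the groups share none, and which mice were littermates is not given.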
